A study of Mus musculus with 6 samples.

Results

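The genes described here are 40 genes of the cell division cycle, chosen by symbol, and their RNA was read by array in tissue from around the pylorus of mouse embryos. Of these, 12 act in DNA replication, 15 in mitosis, 2 are made across both phases, 8 regulate the G1 phase and 3 encode inhibitors of cyclin-dependent kinases. The arrays carried a probe named by a single symbol for 38 of the 40, and 36 passed the filter on dim and missing spots. In all, 18507 genes were named and 16764 were tested. Cdkn1b and Tyms were not analysed here, since no probe was named by either symbol alone. Mcm3 and Rrm1 had a probe but were not tested.

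The study compared 3 Nkx3-2 knockout embryos, as labelled, with 3 wildtype littermates on 1-colour CodeLink arrays. Nkx3-2, or Bapx1, is a homeobox gene of the mesenchyme of the stomach and pylorus. All 6 were at E18.5, came from parents that each carried 1 Cre allele at Bapx1 (Bapx1 CRE/+), and have no treatment in the labels. The sources used here do not say how the allele alters the gene, nor give strain or sex. The tissue was the distal stomach with a margin on either side of the pyloric constriction, so it holds stomach, sphincter and the start of the duodenum, and each array held RNA of 1 animal. The leading digits of the animal codes pair 1 knockout with 1 wildtype embryo, and these are taken as 3 litter pairs. The codes of pair 1 are written in another form than the rest, so its reading as a litter is less sure.

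A cell that commits to division passes from G1, where D-type cyclins with Cdk4 and cyclin E with Cdk2 release E2F factors from the retinoblastoma proteins, into S phase. By then Cdc6 and Cdt1 have loaded the Mcm helicase on replication origins, and Pcna clamps the polymerases to DNA. In G2 and mitosis, cyclin B with Cdk1, the Aurora and Polo kinases and spindle motors such as Kif11 drive chromosome segregation. In the late fetal gut, dividing cells lie in the epithelium between the forming villi and glands and also in the surrounding mesenchyme.

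Values are log2 of background-corrected, quantile-normalized spot intensity, and a difference is knockout minus wildtype on that scale. Levels of different probes are not comparable. Arrays of pair 1 (batch A) were on slides of another series and exported in another run than those of pairs 2 and 3 (batch B), as the file headers show. On the median spot, signal exceeded background by 207, 131 and 120 in knockout arrays 1, 2 and 3, against 204, 109 and 128 in wildtype arrays 1, 2 and 3, and it was thus higher in batch A in both groups. Nkx3-2 itself read 7.73, 8.02 and 7.79 on the arrays labelled knockout, against 7.47, 7.75 and 7.99 on those labelled wildtype. The groups overlapped, and the difference was 0.11 (SE 0.187; adjusted p = 1.00, limma), so the probe does not separate the labels. The sources used here do not place this probe within the gene. The groups are therefore called by their labels throughout.

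No member of the cell cycle set passed the test. Of the 36 tested, 0 were called at an adjusted p under 0.05 by limma, as were 0% of all tested genes, and 0 had an unadjusted p under 0.05, against 1.13% of all tested genes (0.257% with a lower mean in knockout). With the litter pair as a block 0 members had an unadjusted p under 0.05, against 4.53% of all genes. With default array weights 1 member, Kif20a, was called, against 4.04% of all genes, and those weights had not converged. In the fit without weights, every member had an adjusted p of 1.00, and the lowest unadjusted p was 0.173, for Cdk1. All 36 of the 95% intervals covered 0. Their median half-width was 0.58 on the log2 scale, and it lay between 0.32 and 1.21. Blocking on litter pair gave a median half-width of 0.35, between 0.27 and 0.83, and all 36 intervals again covered 0. With 1 embryo per array, the spread used without a block joins differences between embryos, between arrays and between the batches.

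The direction was uneven. In the arrays labelled knockout 28 of the 36 members had a lower mean and 8 a higher one, with a median difference of -0.12. Of all tested genes, 51.9% were lower, and their median difference was -0.01. The median rested on pair 3. Without wildtype array 3 it was -0.03, with 23 of 36 lower, without knockout array 3 it was -0.06, with 23 of 36 lower, and without both it was -0.03, with 24 of 36 lower. Without wildtype array 1 the median was -0.11, with 21 of 36 lower. Under median scaling 25 of 36 were lower (median -0.07), where 42.6% of all genes were lower (median 0.02). By pair, 21 of 35 members were lower in pair 1, 18 of 36 in pair 2 and 32 of 36 in pair 3, against 46.5%, 52.6% and 53.5% of all genes. Within batch B alone, 26 of 36 were lower, against 53.9% of all genes.

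**Figure D1:**
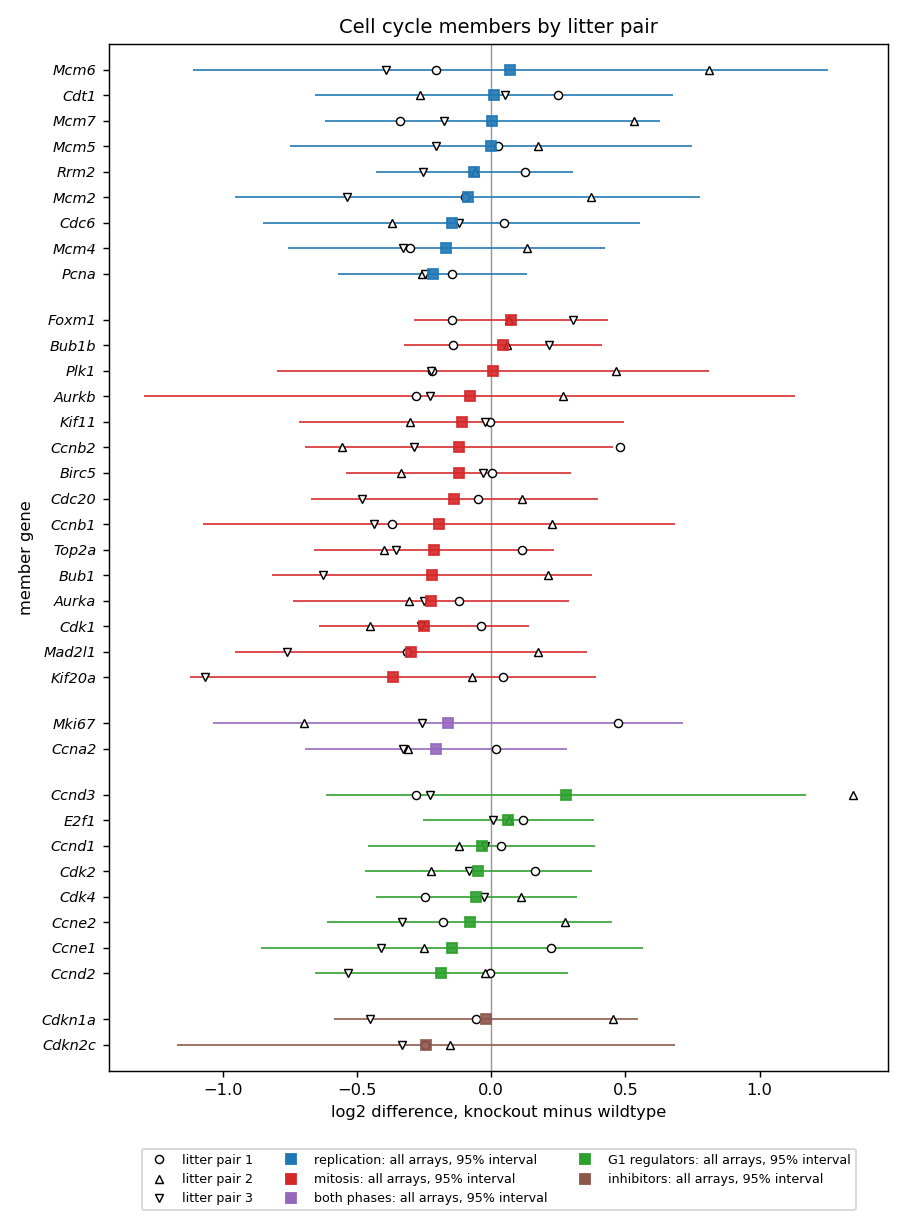
Log2 difference in expression, knockout minus wildtype, of the 36 tested members in order of role. Filled squares are the difference over all 6 arrays with its 95% interval, and open symbols are the 3 litter pairs; every interval crosses 0, and the pair 3 symbols lie below 0 for 32 of 36 members.

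No replication gene passed the test in either direction. Of 12 such members 9 were tested, 6 with a lower and 3 with a higher mean in the knockout-labelled arrays, and the median difference was -0.06. Pcna, the sliding clamp of the replicative polymerases, had 12.45, 12.57 and 12.59 in the arrays labelled knockout, against 12.60, 12.83 and 12.84 in those labelled wildtype. All 3 knockout values lay below all 3 wildtype values. The means were 12.54 ± 0.077 in knockout and 12.75 ± 0.136 in wildtype (SD, n = 3 each), and the difference was -0.22 (SE 0.148; 95% interval -0.57 to 0.13; adjusted p = 1.00, limma). It was -0.08 under median scaling and -0.09 in the deposited value table. The knockout arrays lay wholly below the wildtype arrays for 2 of 35 members with all values, Pcna and Cdk1, and for 1.16% of all genes. They lay wholly above for 0 members, against 2.23% of all genes, and in either direction for 3.38%.

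The Mcm2 to Mcm7 proteins form the helicase that unwinds DNA ahead of the fork. Mcm2 read 8.16, 7.46 and 7.20 in the knockout-labelled arrays, against 8.25, 7.09 and 7.74 in the wildtype-labelled ones. Mcm4 read 10.0001, 10.72 and 10.55 in the knockout arrays, against 10.30, 10.59 and 10.88 in the wildtype arrays. In both genes the groups overlapped, and their differences were -0.09 (SE 0.364) and -0.17 (SE 0.248). Mcm5 read 9.96, 9.18 and 9.21 in the knockout arrays, against 9.94, 9.01 and 9.41 in the wildtype arrays. For Mcm5 the array of pair 1 was the highest in each group, and the difference was -0.00 (95% interval -0.75 to 0.75). Mcm6 read 10.27, 9.52 and 9.05 in the knockout arrays, against 10.48, 8.71 and 9.44 in the wildtype arrays. Again pair 1 was highest in each group and the groups overlapped, with a difference of 0.07 (SE 0.496), and Mcm7 differed by 0.00. Mcm3 was not tested because its spot was set missing, as contaminated, on wildtype arrays 1 and 3, and the other arrays read 10.41, 10.56 and 10.53 in knockout and 10.55 in wildtype array 2.

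Of the licensing factors that load this helicase, Cdc6 read 9.16, 9.63 and 9.80 in the knockout-labelled arrays, against 9.11, 10.004 and 9.92 in the wildtype-labelled ones. The array of pair 1 was the lowest in each group, the groups overlapped, and the difference was -0.15 (SE 0.295). Its partner Cdt1 differed by 0.01. Rrm2, a subunit of the ribonucleotide reductase that makes deoxynucleotides, differed by -0.06 (SE 0.154). Rrm1, the other subunit, was near background on 4 arrays and was not tested.

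The Cdc6 promoter below is shown because it holds the E2F motif, which was more frequent in replication promoters than in the table as a whole. The run is 250 bases before to 50 after the start given by RefSeq on GRCm38.p6, chr11:98907901-98908200, plus strand, with the motif in capitals.
Cdc6: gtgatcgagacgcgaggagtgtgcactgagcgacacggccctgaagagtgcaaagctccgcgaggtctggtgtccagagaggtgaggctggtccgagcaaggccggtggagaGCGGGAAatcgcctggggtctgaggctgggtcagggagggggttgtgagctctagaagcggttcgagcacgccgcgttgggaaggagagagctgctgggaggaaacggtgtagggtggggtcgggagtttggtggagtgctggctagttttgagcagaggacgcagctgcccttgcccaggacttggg
Its match starts at -138 relative to the gene start. The E2F motif was searched on both strands in any of 3 forms: TTCCCGC, or else TTGGCGC, or else TTCGCGC.

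No mitosis gene passed the test either. All 15 members were tested, 12 with a lower and 3 with a higher mean in the knockout-labelled arrays, and the median difference was -0.14. Cdk1, the kinase that starts mitosis, read 12.27, 11.92 and 12.25 in the arrays labelled knockout, against 12.30, 12.37 and 12.52 in those labelled wildtype. The groups did not overlap, and pairs 1, 2 and 3 differed by -0.04, -0.45 and -0.26. The means were 12.15 ± 0.198 in knockout and 12.40 ± 0.109 in wildtype (SD, n = 3 each), and the difference was -0.25 (SE 0.165; 95% interval -0.64 to 0.14; adjusted p = 1.00, limma). It was -0.12 under median scaling and -0.13 in the deposited value table.

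Its partner cyclin B1, encoded by Ccnb1, read 9.09, 8.47 and 8.18 in the knockout arrays, against 9.46, 8.25 and 8.62 in the wildtype arrays. The groups overlapped, with pair 1 the higher array in each, and the difference was -0.19 (SE 0.369). Top2a, the topoisomerase that untangles sister chromatids, read 10.74, 10.21 and 10.52 in the knockout arrays, against 10.63, 10.61 and 10.87 in the wildtype arrays. Pairs 2 and 3 were lower in knockout and pair 1 higher, for a difference of -0.21 (SE 0.188). Kif20a, a kinesin of cytokinesis, read 9.20, 8.48 and 8.16 in the knockout arrays, against 9.16, 8.55 and 9.23 in the wildtype arrays. Pair 3 differed by -1.07, pairs 1 and 2 by 0.04 and -0.07, and the difference over all arrays was -0.37 (95% interval -1.12 to 0.39).

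The other mitosis members spread from -0.30 to 0.07. At the low end was Mad2l1 (-0.30), of the spindle checkpoint, followed by Aurka (-0.23) and Bub1 (-0.22), and at the high end were Foxm1 (0.07), a transcription factor of G2 and M genes, Bub1b (0.04) and Plk1 (0.01). Aurka was read by another tested probe, which differed by -0.00 where the one used gave -0.23. Bub1 had a second probe too, at 0.09, and its own value rests on 5 arrays since wildtype array 1 was missing.

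The cell cycle genes homology region (CHR, TTTGAA) and the NF-Y box (CCAAT) recur in mitosis promoters, though NF-Y was also held by 75% of replication promoters. The Cdk1 promoter is shown because it holds both. It also holds E2F matches, as did only 2 of 12 mitosis promoters. The run is chr10:69352863-69353162 of GRCm38.p6, minus strand, written 5′ to 3′, with all motif matches in capitals.
Cdk1: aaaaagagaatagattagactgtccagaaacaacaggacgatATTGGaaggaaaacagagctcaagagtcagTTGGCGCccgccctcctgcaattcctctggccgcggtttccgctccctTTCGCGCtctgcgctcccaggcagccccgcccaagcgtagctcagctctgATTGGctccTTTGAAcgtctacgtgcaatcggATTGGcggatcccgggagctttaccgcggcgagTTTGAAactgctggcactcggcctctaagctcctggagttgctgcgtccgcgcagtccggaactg
It holds NF-Y matches at -208, -80 and -48 relative to the gene start, E2F matches at -178 and -130, and CHR matches at -71 and -15.

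**Figure D2:**
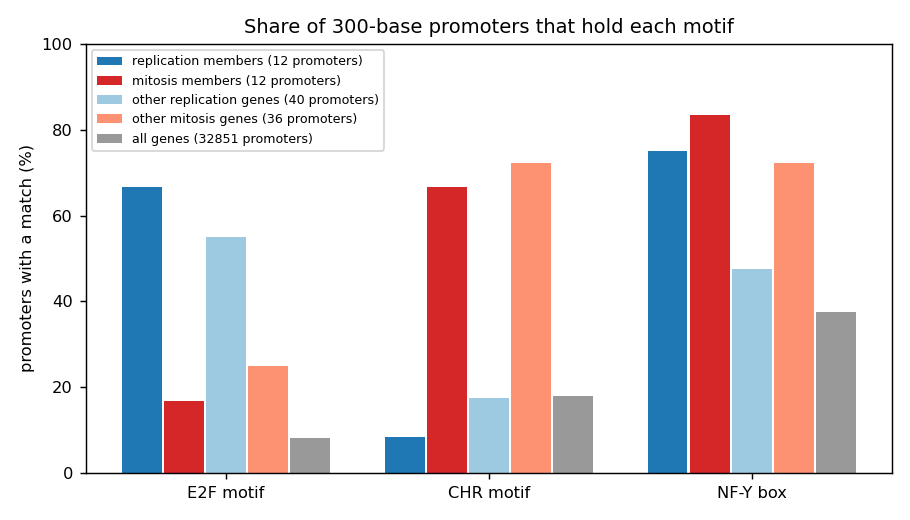
Percent of promoters that hold each motif on either strand, for replication and mitosis members, the other replication and mitosis genes, and all genes of the RefSeq table. The E2F bars are highest for replication members (66.7%) and the CHR bars for mitosis genes (66.7% of members).

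Promoter sequences were found for 32 of the 40 members, some with more than 1 start, which gave 36 promoters. The E2F motif was held by 8 of 12 replication promoters (66.7%), 2 of 12 mitosis promoters (16.7%) and 8.07% of all promoters. CHR was held by 1 of 12 replication promoters (8.33%), 8 of 12 mitosis promoters (66.7%) and 17.9% of all. NF-Y matched 75% of replication, 83.3% of mitosis and 37.4% of all promoters. Other replication genes held E2F in 22 of 40 promoters and CHR in 7, and other mitosis genes held E2F in 9 of 36 and CHR in 26. CHR and NF-Y matches stood together in 8 of 12 mitosis promoters, against 6.95% of all. A match describes the letters in this window and is not evidence of binding.

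The replication and mitosis lists were compared by their medians, with no test. The replication median minus the mitosis median was 0.07 over all arrays, and -0.01, 0.07 and 0.02 in pairs 1, 2 and 3. By pair, the replication median was -0.10, 0.13 and -0.25, and the mitosis median -0.08, 0.06 and -0.26, so both lists were lowest in pair 3. Per array, as the median of gene-centred levels, replication read 0.12, -0.06 and -0.09 in knockout arrays 1, 2 and 3, against -0.00, -0.07 and 0.10 in the wildtype arrays. The same for mitosis was 0.16, -0.18 and -0.06 in the knockout arrays, against 0.08, -0.08 and 0.15 in the wildtype arrays. Wildtype array 3 was the highest of the batch B arrays for 20 of 35 members (57.1%), against 25.1% of all genes.

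**Figure D3:**
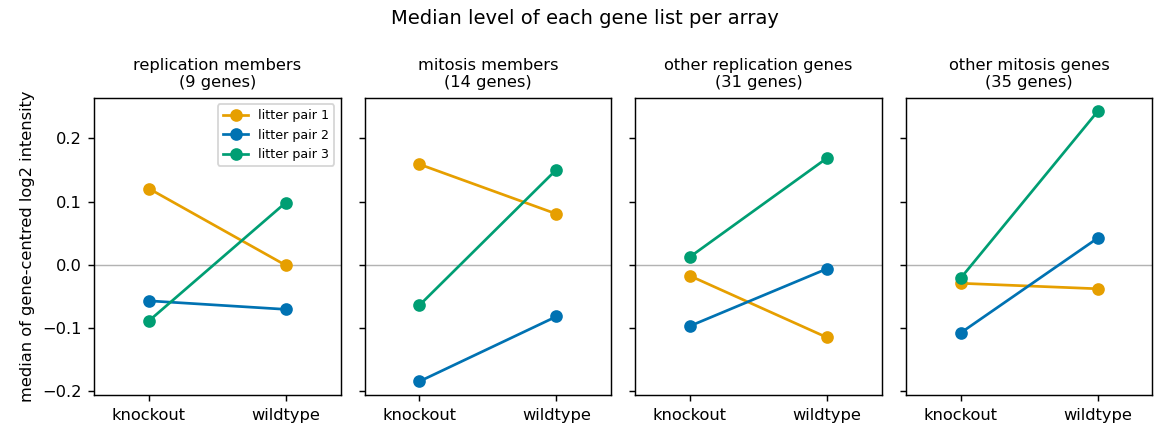
Median gene-centred log2 level of 4 gene lists on each array, knockout left of wildtype, with lines joining the arrays of a litter pair. For mitosis members knockout array 1 (0.16) and wildtype array 3 (0.15) stand highest and knockout array 2 (-0.18) lowest; the pair 3 line is higher at its wildtype end in all 4 lists.

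Mki67, the antigen that marks cycling cells, read 12.40, 12.52 and 12.92 in the knockout-labelled arrays, against 11.93, 13.21 and 13.17 in the wildtype-labelled ones. Pair 1 was higher in knockout (0.47) and pairs 2 and 3 lower (-0.70 and -0.26). Over all arrays the difference was -0.16 (SE 0.368). Within batch B it was -0.48 with an unadjusted p of 0.025. In that batch 2 of 36 members (Mki67 and Ccne1) and 12.0% of all genes had an unadjusted p under 0.05, and 0 genes passed adjustment. Cyclin A2, from Ccna2, differed by -0.21 (SE 0.205), with pair 1 at 0.02 and pairs 2 and 3 at -0.31 and -0.33.

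**Figure D4:**
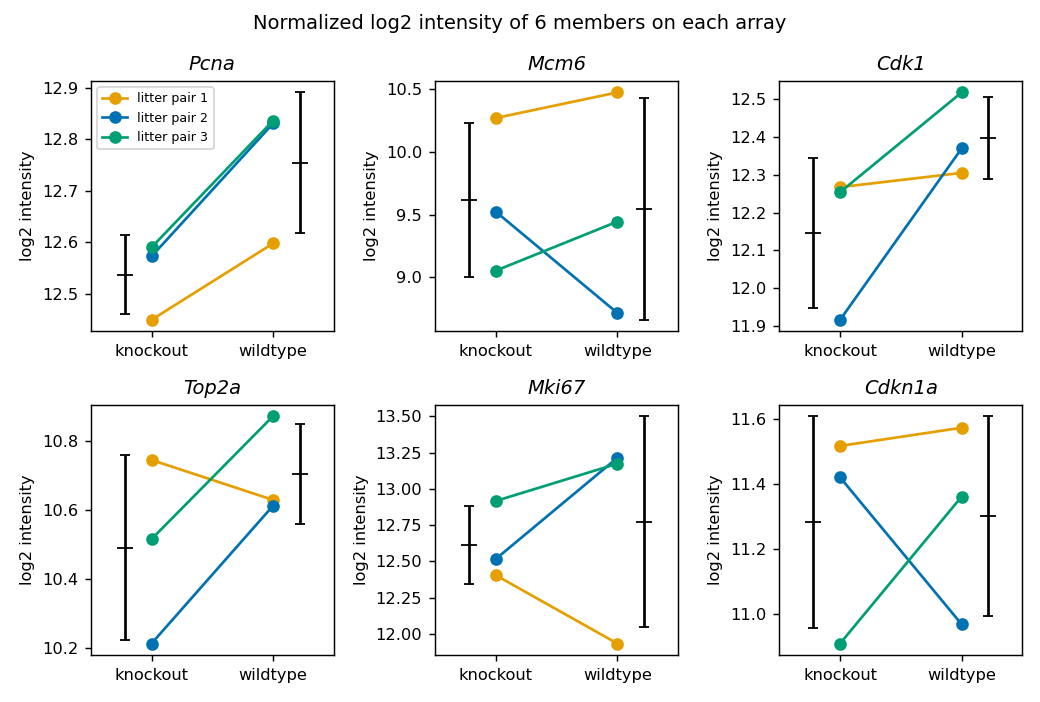
Normalized log2 intensity of 6 members on each array, knockout left of wildtype, with lines joining litter pairs and bars for each group's mean and SD (n = 3). The groups overlap for Mcm6, Top2a, Mki67 and Cdkn1a and not for Pcna and Cdk1; axes do not start at 0 and differ between panels.

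Of the G1 regulators, 6 of 8 had a lower mean in the knockout-labelled arrays, and the median was -0.05. Ccnd1, cyclin D1, read 7.02, 6.59 and 6.69 in the knockout arrays, against 6.98, 6.71 and 6.71 in the wildtype arrays. The groups overlapped, with a difference of -0.04 (SE 0.178). Ccnd2, cyclin D2, read 12.03, 11.83 and 11.39 in the knockout arrays, against 12.03, 11.85 and 11.93 in the wildtype arrays. Only pair 3 differed widely (-0.53), for -0.19 in all (SE 0.198). Ccnd3 read 7.86, 8.13 and 7.34 in the knockout arrays, against 8.14, 6.78 and 7.57 in the wildtype arrays. Pair 2 alone was higher, by 1.35, and the difference was 0.28 (SE 0.375). Ccne1, cyclin E1, read 8.33, 8.77 and 8.71 in the knockout arrays, against 8.11, 9.02 and 9.12 in the wildtype arrays, for -0.15 (SE 0.299), and E2f1 differed by 0.06 and was the 1 member of 35 higher in all 3 pairs, as were 11.5% of all genes. Lower in all 3 pairs were 6 of 35 members, Pcna, Cdk1, Aurka, Kif11, Ccnd2 and Cdkn2c, against 11.6% of all genes. Some of these differences were near 0: Kif11 in pairs 1 and 3 (-0.004 and -0.02) and Ccnd2 in pairs 1 and 2 (-0.003 and -0.02). Aurka was so by the probe used only, since its other tested probe read 7.73 in knockout array 2 and 7.21 in wildtype array 2.

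Of the inhibitors, Cdkn1a (p21) read 11.52, 11.42 and 10.91 in the knockout-labelled arrays, against 11.57, 10.97 and 11.36 in the wildtype-labelled ones. The groups overlapped and the difference was -0.02 (95% interval -0.59 to 0.55). Cdkn2c (p18, an inhibitor of Cdk4 and Cdk6) read 8.23, 9.28 and 9.19 in the knockout arrays, against 8.47, 9.44 and 9.53 in the wildtype arrays. Pair 1 was about 1 log2 unit below pairs 2 and 3 in both groups (-1.01, batch A minus batch B), against a group difference of -0.24 (SE 0.390). With the batch as a block its unadjusted p was 0.039 (limma). In that fit 1 of the 36 members and 5.83% of all genes had an unadjusted p under 0.05, and the adjusted p of Cdkn2c was 0.81. A second tested probe of Cdkn2c differed by -0.22 between the batches and by -0.20 between the groups.

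For most members, as for most genes, the arrays differed more by batch than by label. The difference of batch A from batch B was larger in size than that of knockout from wildtype for 30 of 36 members (83.3%), against 83.0% of all genes. The medians in size were 0.40 and 0.12 for the members, against 0.36 and 0.09 for all genes. Batch A is pair 1 alone, so the batch difference is also that of its embryos from the rest. The batch difference was highest for Aurkb (1.31) and Mcm6 (1.19) and lowest for Cdkn2c (-1.01, but -0.22 by its other tested probe). In all, 21 members were higher in batch A and 15 lower. The 2 tested probes of Kif11 differed by -0.56 and 0.66 between the batches, and those of Aurka by -0.39 and 0.73.

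**Figure D5:**
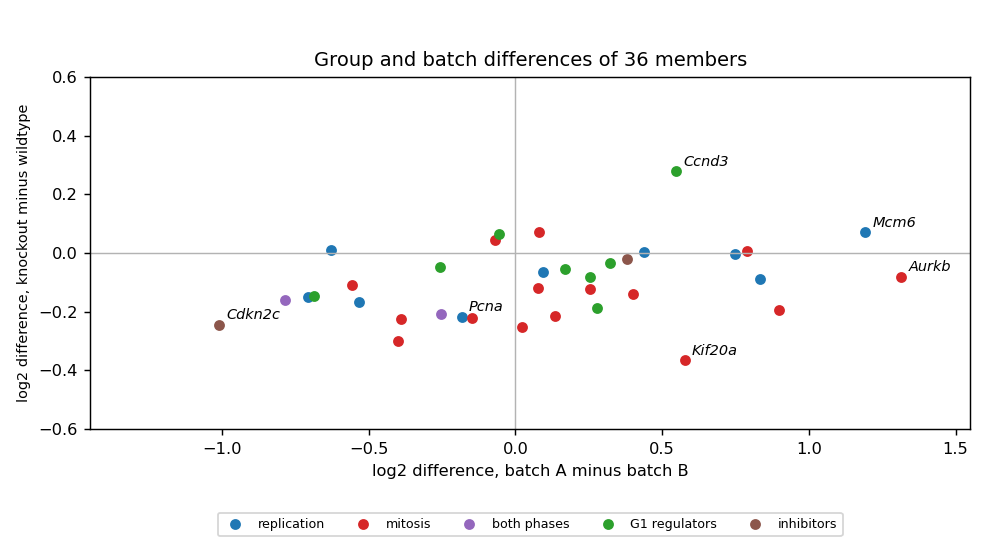
Difference of knockout from wildtype against the difference of batch A from batch B for the 36 members, both on the log2 scale. The points spread further along the batch axis than along the group axis.

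In the other replication and mitosis genes, too, lower means outnumbered higher ones, while the other G1 control genes lay near the 51.9% of all genes. Of 35 other replication genes tested, 28 had a lower mean in the knockout-labelled arrays (median -0.08), of 37 other mitosis genes 34 did (median -0.13), and of 25 other G1 control genes 14 did (56.0%; median -0.02), with 0 called in each. The lean differed by pair. In pair 1, 14 of 35 other replication and 17 of 36 other mitosis genes were lower, against 46.5% of all genes. In pair 2, 20 of 34 and 23 of 36 were lower, against 52.6% of all genes. In pair 3, 27 of 32 and 34 of 37 were lower, against 53.5% of all genes, but only 8 of 24 other G1 control genes. Without wildtype array 3, 22 of 37 other mitosis genes were lower (median -0.02), and the median of the other replication genes was -0.01. Without knockout array 3, 32 of 37 other mitosis genes were lower (median -0.16), and the other replication median was -0.05. Without both, 28 of 37 other mitosis genes were lower (median -0.07), and the other replication median was 0.003. In the full set of arrays, knockout array 2 was the lowest of the batch B arrays for 22 of 35 other mitosis genes with all values (62.9%). The same held for 15 of 31 other replication genes (48.4%) and 30.6% of all genes. Hmmr, a hyaluronan receptor on the spindle, read 9.32, 9.44 and 9.53 in the knockout arrays, against 9.57, 9.89 and 9.87 in the wildtype arrays. The groups did not overlap, as for 3.38% of all genes, and the difference was -0.34 (SE 0.160). Cdkn1c (p57), a G1 inhibitor, read 14.08, 13.78 and 14.07 in the knockout arrays, against 13.96, 13.28 and 13.61 in the wildtype arrays, for 0.36 (SE 0.214). The groups overlapped, and the spot was saturated on knockout array 1, so that value may be too low. Of the mitosis genes, Cdc25b, a phosphatase that activates Cdk1, differed by -0.44 (SE 0.241) and Aspm, of the spindle poles, by -0.23 (SE 0.178). The nucleotide enzymes Dut and Tk1 differed by -0.24 (SE 0.154) and -0.23 (SE 0.211), and Pola2, a subunit of polymerase alpha, by 0.18 (SE 0.158). Cdkn2b, a further inhibitor of Cdk4, differed by 0.17 (SE 0.134), with all 3 knockout values above all 3 wildtype values. It was the 1 such gene of 24 other G1 control genes with all values, against 2.23% of all genes. E2f5 differed by 0.19 (SE 0.184). None passed the test.

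The makeup of the tissue was read from marker lists, and in bulk tissue fewer cells of a type and less RNA per cell cannot be told apart. Intestinal epithelial markers were higher in the knockout-labelled arrays for 8 of 8 tested, with per-array medians of 0.18, 0.36 and 0.19 in the knockout arrays, against 0.21, -0.49 and -0.53 in the wildtype arrays. Skeletal muscle markers were lower for 7 of 8, at -0.53, -1.27 and 0.45 in the knockout arrays, against -0.10, 0.30 and 1.52 in the wildtype arrays. Liver markers were high on knockout array 1 alone (2.33, other arrays -0.72 to -0.05), and skeletal muscle markers were highest on wildtype array 3. Gastric markers were higher for 5 and lower for 5 of 10, with differences of -1.54 to 0.20. Their medians were -0.48, 0.08 and -0.04 in the knockout arrays, against -0.20, 0.22 and 0.40 in the wildtype arrays, and the knockout array was lower in all 3 pairs. An unadjusted p under 0.05 (limma) was reached by 2 of 10 gastric markers, both lower. It was also reached by 3 of 8 intestinal epithelial markers, all higher, and by 1.13% of all genes. With the litter pair as a block (limma), it was reached by 6 of 8 skeletal muscle, 4 of 8 intestinal epithelial and 3 of 10 gastric markers. In that fit it was reached by 4.53% of all genes. Visceral smooth muscle markers were higher for 4 and lower for 4 of 8. Intestinal progenitor markers were lower for 5 of 5, erythroid markers higher for 4 of 6 and leukocyte markers higher for 4 of 5. In each list 0 genes were called. Whether any of these bore on the cell cycle values was not tested.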

How the data were processed

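RNA of 6 embryos was read on 6 arrays. Per the file headers, each scanner file deposited by the authors holds spot mean intensity and local background median intensity, neither normalized. Judged from its values, the deposited value table holds background-subtracted intensity scaled to each array's median. Here spot means were corrected by limma's normexp (offset 50), then quantile normalized across the 34967 gene probes, and log2 was taken. Masked, contaminated or irregular spots (0.418% to 3.34% per array) were set missing. A probe was tested if not near background on at least 3 arrays and with at least 2 values per group, and the probe of the highest mean signal stood for a gene. Names came from the platform annotation and RefSeq symbols (assembly GRCm38.p6). Groups were compared by limma 3.58.1 (R 4.3.3, lmFit and eBayes) with Benjamini-Hochberg adjustment at 0.05. The fit was tried on simulated data with changes much larger than any member's difference and with no batch or pair pattern. That trial does not cover differences of the members' size. Promoters came from RefSeq, and the printed ones are the member of each role with the largest absolute t whose promoter holds the motif.

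The members and lists were chosen with earlier results of these data known. Values on every array are given for 11 preset members (of which Cdkn1b was not analysed) and for the 3 of each role (replication, mitosis, G1 regulators) with the largest absolute moderated t; Hmmr and Cdkn1c are likewise drawn from the 3 of each other list with the largest t. Mcm6 was added after its values were seen. The litter pairs come from the animal codes and were checked by correlating paired arrays' deviations from their group means over 15667 genes, giving 0.784, 0.409 and 0.576. Mismatched arrays within batch B gave 0.536 and 0.636, so in these values litter cannot be told apart from batch. Alternatives changed the background correction, scaling, source of values, filter, probes, block, weights and arrays.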

Additional observations from a re-analysis of the deposited data

How the results depend on the processing

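Every alternative tried left 0 genes called, except default array weights, which called 677 genes (4.04%), 1 member (Kif20a, -0.88, SE 0.18, adjusted p = 0.0393) and 1 other replication gene (adjusted p = 0.0398). Those weights ran from 0.166 to 6.96 and had not converged, and gene by gene weights, chosen after seeing the data, called 0. With default weights the mitosis median was -0.31 and the replication minus mitosis difference 0.13, and median scaling gave 0.029 for that difference. In the deposited value table the replication median was -0.02, the mitosis median -0.12 and their difference 0.10. There 5 of 9 replication and 12 of 15 mitosis members were lower. The litter pair as a replicate block called 0 genes and left the medians at -0.06 and -0.14, and it changed no call. Batch A holds 1 array of each group, so it gave no test of its own. Leaving out arrays or pairs gave -0.20 to 0.03 for the replication median, -0.26 to -0.04 for mitosis and -0.012 to 0.14 for their difference, and 0 genes in each. Mcm5 changed sign under median scaling, the value table and the per-sample values (0.061, 0.059 and 0.057), as did Cdkn1a (0.073, 0.062 and 0.061, and 1.31e-05 within batch B); the cause was not tested. With arrays or pairs left out, the ranges that crossed 0 among the 16 members tested under the naming rule were Mcm2 -0.39 to 0.19, Mcm4 -0.32 to 0.045, Mcm5 -0.26 to 0.24, Cdc6 -0.43 to 0.039, Ccnb1 -0.46 to 0.15, Mki67 -0.58 to 0.11, Ccnd1 -0.16 to 0.055, Ccnd3 -0.26 to 0.60, Ccne1 -0.47 to 0.041, Cdkn1a -0.25 to 0.20 and Cdkn2c -0.58 to 0.094. The other 5 kept their sign, some near 0: Pcna -0.30 to -0.17, Cdk1 -0.36 to -0.14, Kif20a -0.66 to -0.014, Top2a -0.38 to -0.074 and Ccnd2 -0.32 to -0.0076. Of the members outside that rule, Aurka (by the probe used), Mad2l1, Ccna2 and E2f1 kept their sign. The other 16 did not, Mcm6 (-0.34 to 0.54, and -0.18 with default weights) and Aurkb (-0.47 to 0.41) among them. With 3 arrays a group, array number limits precision.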
